A study of Mus musculus with 4 samples.

Results

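Interferon-responsive genes and genes of MHC class I antigen presentation were examined in E17 mouse lungs as a list of 43 gene symbols. The rows of the count table whose gene symbol is one of these were taken, and all 43 were found once among the 45706 genes of the table. RNA of the left lung lobe was sequenced from 2 Myh10+/+ and 2 Myh10L458R/L458R (hereafter Myh10-/-) mice on a C57BL/6 background at E17, with no treatment in either group. Myh10 encodes the heavy chain of non-muscle myosin IIB, and the L458R missense allele, which came from an ENU mutagenesis screen, is carried in every cell, so that a difference cannot be assigned to the lung or to a cell type in it. Litter and parents of the embryos are not given in the sources used here. The numbers of reads counted on genes lay between 19116971 and 32055306 per lung. Each value below is a TMM-normalised read count (CPM, reads relative to the scaled total of the lung), and each fold change (log2 ratio) is Myh10-/- over Myh10+/+, tested by edgeR's quasi-likelihood method. Adjusted p-values (Benjamini-Hochberg) cover all 18763 genes that reached a mean of 5 counts. All 43 genes passed that minimum, with means from 12.25 to 4320 counts. Because there were 2 lungs per genotype, the number of lungs limits the precision.

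Myh10 itself had 505 and 504 CPM in Myh10+/+ lungs and 539 and 513 CPM in Myh10-/- lungs, and since the mutation exchanges a single amino acid this count does not tell the genotypes apart. Xist, transcribed from the inactive X chromosome, stood at 3916 CPM in the first Myh10+/+ lung and 1.84 CPM in the second, and at 4.10 CPM in the first Myh10-/- lung and 4457 CPM in the second. Each genotype therefore had 1 lung with Xist and 1 without.

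Interferons are secreted proteins that signal through paired receptor chains to JAK kinases and STAT proteins, which together with interferon regulatory factors (IRFs) switch on a shared set of antiviral genes. Many of these genes are also transcribed at a low level without infection. MHC class I molecules consist of a heavy chain and beta-2-microglobulin and carry peptides, cut by the proteasome and pumped into the endoplasmic reticulum by TAP, to the cell surface, and interferons raise most components of this route.

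The 43 genes and the further lists below were chosen with earlier results of these data known. Their shares beside those of all tested genes are therefore no independent support for an excess. Of the 43 genes, 9 were lower in Myh10-/- lungs at an adjusted p-value under 0.05 (20.9%), where 1.34% of all tested genes were lower and 1.64% differed in either direction. These were Ly6a, Ly6c1, Usp18, Ly6e, Ifitm1, H2-K1, H2-D1, Tapbp and Irf1, with log2 fold changes from -1.09 to -0.34. None of the 43 was higher by edgeR (0 also at an unadjusted p-value under 0.05), where 0.298% of all tested genes were higher. By DESeq2 it was 0 too, but DESeq2 gave no adjusted p-value for 18 of the 43. At an unadjusted p-value under 0.05 18 were lower, against a background of 9.02% lower and 7.52% higher. The median log2 fold change was -0.17 over the 43 genes and 0.00 over all tested genes, and 38 of the 43 values were negative, with 9281 of 18763 negative among all tested genes (49.5%). In 28 genes both Myh10-/- lungs lay below both Myh10+/+ lungs and in 3 both lay above, 72.1% without overlap, while with 2 lungs per genotype 48.3% of all tested genes did not overlap either. The count of lower genes depended on single lungs, and the share of all tested genes that were lower moved too, most without Myh10-/- lung 2. Negative values numbered 34 of the 43 without Myh10+/+ lung 1 and 36 without Myh10+/+ lung 2. They numbered 30 without Myh10-/- lung 1 and 38 without Myh10-/- lung 2. The median over all tested genes stayed at 0.00 in each of these fits.

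**Figure D1:**
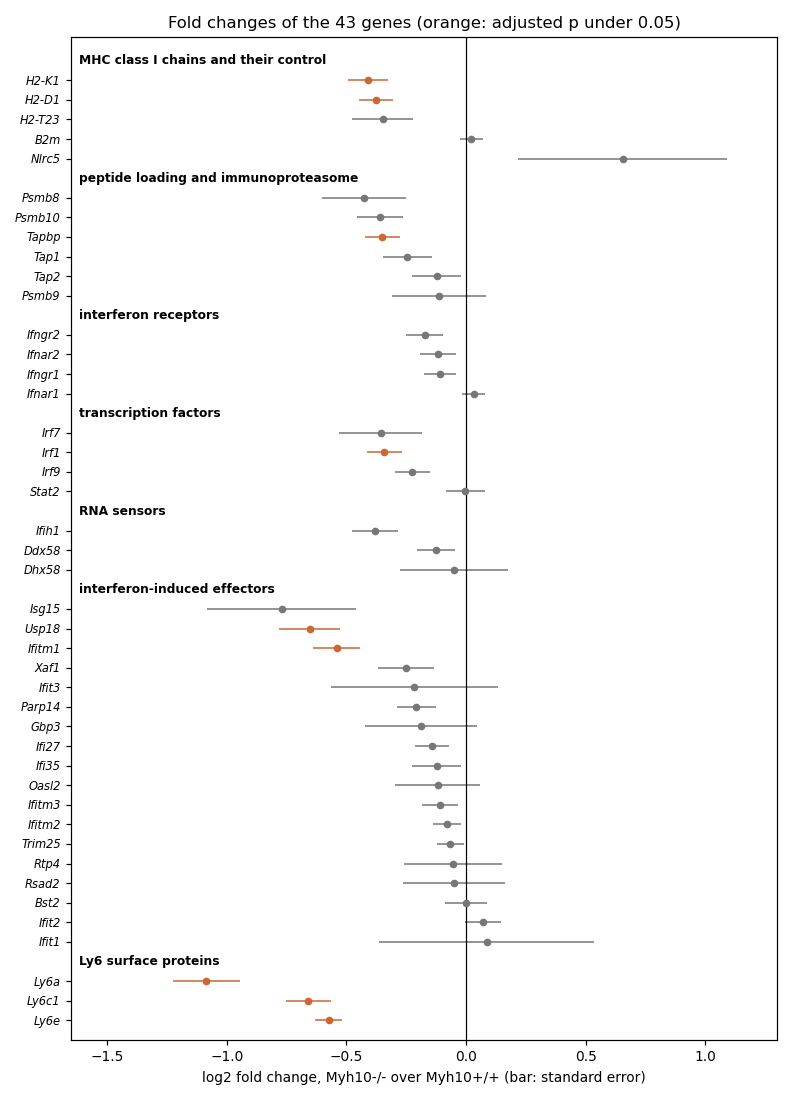
Log2 fold change (Myh10-/- over Myh10+/+, horizontal axis) of each of the 43 genes, grouped by role, with its standard error as a bar (2 lungs per genotype). The 9 genes with an adjusted p-value under 0.05, in orange, all lie left of 0, and the 3 Ly6 genes are among them.

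Interferons themselves were hardly counted. A list of 21 ligands covers 22 rows of the table (type I, II and III interferons), and 18 of these rows, Ifnb1 among them, had 0 counts in all 4 lungs, which allows up to 0.0932 to 0.158 CPM per lung (3 counts, counting error only). Most of these rows are Ifna paralogues, and since reads with more than 1 position were dropped, this limit covers only reads unique to each gene. Ifng, the type II interferon, had 1 and 2 counts in Myh10+/+ lungs and 6 and 3 in Myh10-/- lungs, and no ligand reached the minimum for testing.

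The receptor chains were well counted and none passed the threshold. Ifnar1, a chain of the type I interferon receptor, had 139 and 137 CPM in Myh10+/+ lungs and 140.3 and 142 CPM in Myh10-/- lungs, which gave a log2 ratio of 0.03 ± 0.05 (SE, adjusted p = 0.802, 95% interval -0.07 to 0.14). Its partner Ifnar2 had 39.0 and 40.4 CPM in Myh10+/+ lungs and 36.7 and 36.4 CPM in Myh10-/- lungs (-0.12, adjusted p = 0.463). Both Ifnar1 values in Myh10-/- lungs lay above those in Myh10+/+ lungs, and both Ifnar2 values below, by little in either case. Ifngr2, a chain of the type II receptor, had 64.7 and 68.3 CPM in Myh10+/+ lungs and 55.6 and 62.2 CPM in Myh10-/- lungs, and its log2 ratio was -0.17 ± 0.08 (SE, adjusted p = 0.285, 95% interval -0.34 to -0.01). Its partner Ifngr1 stood at -0.11 (adjusted p = 0.46).

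Among the transcription factors, Irf1 was lower. Irf1, a factor induced by interferon-gamma that acts on MHC class I and immunoproteasome genes, had 46.2 and 48.0 CPM in Myh10+/+ lungs and 36.7 and 37.5 CPM in Myh10-/- lungs, which gave a log2 ratio of -0.34 ± 0.07 (SE, adjusted p = 0.0414). Both Myh10-/- lungs lay below both Myh10+/+ lungs, but the call was lost without Myh10+/+ lung 2 (-0.32, adjusted p = 0.254), without Myh10-/- lung 1 (-0.32, adjusted p = 0.076) and when a mean of 50 counts was required (adjusted p = 0.0566). An antisense gene overlaps 135 bases of its exons, which matters if the counting ignored strand. Stat2 and Irf9, both subunits of the ISGF3 complex, differed in their values. Stat2 had 40.8 and 36.4 CPM in Myh10+/+ lungs and 39.4 and 37.8 CPM in Myh10-/- lungs (-0.003, adjusted p = 0.991), with overlapping genotypes, and Irf9 had 38.9 and 39.8 CPM in Myh10+/+ lungs and 33.8 and 33.5 CPM in Myh10-/- lungs (-0.22, adjusted p = 0.154), without overlap but short of the threshold. Irf7, which amplifies type I interferon production, had 4.58 and 5.25 CPM in Myh10+/+ lungs and 3.49 and 4.13 CPM in Myh10-/- lungs (-0.36 ± 0.17 SE, adjusted p = 0.328).

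Sensors of double-stranded or 5'-triphosphate RNA were in the list and none passed. Ifih1 (MDA5) was closest, with 16.3 and 16.6 CPM in Myh10+/+ lungs and 11.7 and 13.5 CPM in Myh10-/- lungs, which gave a log2 ratio of -0.38 ± 0.10 (SE, adjusted p = 0.0733). Ddx58 (RIG-I) had 40.1 and 38.4 CPM in Myh10+/+ lungs and 34.2 and 37.8 CPM in Myh10-/- lungs (-0.13 ± 0.08 SE, adjusted p = 0.471). Dhx58 (LGP2) overlapped between genotypes (-0.05, adjusted p = 0.943).

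The MHC class I heavy chains and beta-2-microglobulin differed in their values. H2-K1 (ENSMUSG00000061232, chromosome 17, 33996017 to 34000347, minus strand, GRCm38), a classical heavy chain, had 53.0 and 53.6 CPM in Myh10+/+ lungs and 37.4 and 42.8 CPM in Myh10-/- lungs. The log2 ratio was -0.41 ± 0.08 (SE, adjusted p = 0.0307). H2-D1 (ENSMUSG00000073411, chromosome 17, 35262730 to 35267499, plus strand), the other classical heavy chain of this strain, had 86.7 and 87.2 CPM in Myh10+/+ lungs and 62.7 and 71.2 CPM in Myh10-/- lungs, which gave a log2 ratio of -0.38 ± 0.07 (SE, adjusted p = 0.0264). For both genes the Myh10+/+ lungs lay close together and the Myh10-/- lungs lay lower, lung 1 lowest. The non-classical chain H2-T23 (Qa-1) had 8.21 and 9.51 CPM in Myh10+/+ lungs and 6.79 and 7.05 CPM in Myh10-/- lungs (-0.35 ± 0.13 SE, adjusted p = 0.191), a fold change of similar size that did not pass. B2m (ENSMUSG00000060802, chromosome 2, 122147686 to 122153083, plus strand), the invariant light chain of all class I molecules, had 150.0 and 149 CPM in Myh10+/+ lungs and 153 and 151 CPM in Myh10-/- lungs, which gave a log2 ratio of 0.02 ± 0.05 (SE, adjusted p = 0.867, 95% interval -0.08 to 0.13). This interval does not reach the fold change of either heavy chain, although the difference between genes was not itself tested. Nlrc5, the transactivator of class I genes, had 0.349 and 0.368 CPM in Myh10+/+ lungs and 0.503 and 0.621 CPM in Myh10-/- lungs, and its log2 ratio was 0.65 ± 0.44 (SE, adjusted p = 0.493). Both Myh10-/- lungs lay above both Myh10+/+ lungs, at the lowest counts of the list. The call of H2-K1 was lost without Myh10+/+ lung 2 (-0.40, adjusted p = 0.0757), without Myh10-/- lung 1 (-0.32, adjusted p = 0.0517) and when a mean of 50 counts was required (adjusted p = 0.0506), and that of H2-D1 without Myh10+/+ lung 1 (-0.38, adjusted p = 0.0544). Reads that fit several class I genes were left out by the authors, and among all stretches of 75 bases, as long as a read, in the longest coding transcript (windows), 1.55% of H2-K1, 7.1% of H2-D1 and 13.1% of H2-T23 also occur in other genes.

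The 250 bases before a RefSeq transcription start (GRCm38.p6, 5' to 3' on the gene's strand) are shown for the 2 heavy chain genes that were lower and for B2m, which is well counted and did not pass. The RefSeq start of H2-D1 lies inside the gene as GENCODE places it (the positions above), so the stretch shown for H2-D1 is within that annotated gene. In H2-K1 and H2-D1 capitals mark the runs of at least 20 bases that the 2 sequences share, of 21, 47 and 40 bases in that order. In B2m capitals mark the core of the interferon-stimulated response element (ISRE), searched on both strands as GAAA, any pair of bases and GAAA again.
H2-K1 (chr17:34000348-34000597, minus strand): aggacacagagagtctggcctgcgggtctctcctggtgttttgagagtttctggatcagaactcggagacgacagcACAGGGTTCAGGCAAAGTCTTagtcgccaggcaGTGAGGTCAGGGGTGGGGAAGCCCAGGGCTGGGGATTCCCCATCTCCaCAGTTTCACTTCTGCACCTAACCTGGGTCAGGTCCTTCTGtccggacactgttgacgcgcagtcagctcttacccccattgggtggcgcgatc
H2-D1 (chr17:35262844-35263093, plus strand): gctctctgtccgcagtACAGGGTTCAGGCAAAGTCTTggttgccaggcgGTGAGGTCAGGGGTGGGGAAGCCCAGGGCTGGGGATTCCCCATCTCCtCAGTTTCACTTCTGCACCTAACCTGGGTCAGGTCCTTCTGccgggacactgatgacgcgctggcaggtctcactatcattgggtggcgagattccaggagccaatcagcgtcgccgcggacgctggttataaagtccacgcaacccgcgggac
B2m (chr2:122147437-122147686, plus strand): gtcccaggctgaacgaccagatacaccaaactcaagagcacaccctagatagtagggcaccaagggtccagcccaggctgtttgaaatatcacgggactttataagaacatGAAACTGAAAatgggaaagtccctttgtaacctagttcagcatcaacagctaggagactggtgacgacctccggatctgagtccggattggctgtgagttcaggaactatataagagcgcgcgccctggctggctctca
The runs of 47 and 40 bases each occurred in 3 of 32851 promoters (250 bases before to 50 after the start), all of H2-K1 or H2-D1, and the run of 21 bases in 6, which also include H2-Q4, H2-Q6 and H2-Q7. The ISRE core was found in 3.44% of all promoters, and in B2m its first base lies 139 bases before the start.

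Peptide supply gave 1 lower gene of 6 (16.7%, where 1.34% of all tested genes were lower). Tapbp, which encodes tapasin, the protein that holds class I molecules at the TAP transporter, had 70.6 and 75.9 CPM in Myh10+/+ lungs and 58.9 and 56.0 CPM in Myh10-/- lungs, which gave a log2 ratio of -0.35 ± 0.07 (SE, adjusted p = 0.0336). Both Myh10-/- lungs were below both Myh10+/+ lungs, and of the 4 fits with a lung left out the call was lost only without Myh10+/+ lung 2 (-0.30, adjusted p = 0.151). The count of Tapbp is uncertain, since 904 bases of its exons lie opposite an antisense gene and 17.5% of its windows are shared. The TAP transporter subunits had log2 fold changes of -0.25 (Tap1, adjusted p = 0.251) and -0.12 (Tap2, adjusted p = 0.594).

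The 3 immunoproteasome subunits replace the constitutive catalytic subunits of the proteasome after interferon exposure. Psmb10 had 17.9 and 18.8 CPM in Myh10+/+ lungs and 13.0 and 15.5 CPM in Myh10-/- lungs, which gave a log2 ratio of -0.36 ± 0.10 (SE, adjusted p = 0.0877). Psmb8 had 8.16 and 8.77 CPM in Myh10+/+ lungs and 4.92 and 7.55 CPM in Myh10-/- lungs (-0.43 ± 0.18 SE, adjusted p = 0.251), and Psmb9 overlapped between genotypes (-0.11, adjusted p = 0.824). In Psmb8 the difference between the Myh10-/- lungs was larger than that between Myh10-/- lung 2 and either Myh10+/+ lung. The constitutive counterparts Psmb5, Psmb6 and Psmb7 had log2 fold changes of -0.05, 0.02 and -0.02, with adjusted p-values of 0.807, 0.929 and 0.919. Psmb9 and Tap1 lie head to head on chromosome 17 and share 212 bases of exon on opposite strands, so reads there cannot be assigned to either without strand.

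Of the 18 interferon-induced effector genes, 2 were lower (11.1%, where 1.34% of all tested genes were). Usp18, a protease that removes ISG15 from proteins and dampens type I interferon signalling, had 10.7 and 9.09 CPM in Myh10+/+ lungs and 6.22 and 6.40 CPM in Myh10-/- lungs, which gave a log2 ratio of -0.65 ± 0.13 (SE, adjusted p = 0.028). The lower Myh10+/+ value still lay above both Myh10-/- values, and without Myh10+/+ lung 1 the call was lost (-0.52, adjusted p = 0.16). Ifitm1 (ENSMUSG00000025491, chromosome 7, 140967221 to 140969825, plus strand), a membrane protein that restricts virus entry, had 20.6 and 25.0 CPM in Myh10+/+ lungs and 14.8 and 16.4 CPM in Myh10-/- lungs, which gave a log2 ratio of -0.54 ± 0.10 (SE, adjusted p = 0.0205). Its call was lost without Myh10+/+ lung 2 (-0.40, adjusted p = 0.132) and without Myh10-/- lung 1 (-0.47, adjusted p = 0.0537).

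The neighbours of Ifitm1 on chromosome 7, of the same family, had smaller values. Ifitm2 had 119.9 and 118 CPM in Myh10+/+ lungs and 108 and 117 CPM in Myh10-/- lungs, which gave a log2 ratio of -0.08 ± 0.06 (SE, adjusted p = 0.521, 95% interval -0.21 to 0.04), and 42% of its windows are shared with other genes. Ifitm3, which restricts influenza virus and others in endosomes, had 56.5 and 56.9 CPM in Myh10+/+ lungs and 50.4 and 54.7 CPM in Myh10-/- lungs (-0.11 ± 0.07 SE, adjusted p = 0.496, 95% interval -0.27 to 0.05). Neither interval reaches the value of Ifitm1, and the difference between the genes was not tested. The 250 bases before the RefSeq start are shown for Ifitm1, which fell, and Ifitm2, which did not pass, with ISRE cores in capitals. The Ifitm1 stretch lies wholly inside the gene as GENCODE places it, since the RefSeq start used is an internal one, and the DNA before the GENCODE start was not searched.
Ifitm1 (chr7:140967826-140968075, plus strand): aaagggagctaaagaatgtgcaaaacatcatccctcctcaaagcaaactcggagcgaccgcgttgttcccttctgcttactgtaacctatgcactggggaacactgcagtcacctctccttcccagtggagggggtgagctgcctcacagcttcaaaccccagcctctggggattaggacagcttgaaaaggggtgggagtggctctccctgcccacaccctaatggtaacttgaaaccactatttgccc
Ifitm2 (chr7:140955962-140956211, minus strand): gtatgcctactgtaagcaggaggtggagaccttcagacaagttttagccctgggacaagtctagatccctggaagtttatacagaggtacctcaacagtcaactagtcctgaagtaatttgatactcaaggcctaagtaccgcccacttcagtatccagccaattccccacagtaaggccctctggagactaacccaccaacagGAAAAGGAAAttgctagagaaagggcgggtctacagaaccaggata
The Ifitm2 core starts 46 bases before the RefSeq start, and no core was found in the Ifitm1 window. The 2 windows are not at like places in the annotated genes.

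Isg15, a ubiquitin-like modifier and a sensitive marker of interferon signalling, was counted at 1.48 and 1.47 CPM in Myh10+/+ lungs and 0.683 and 1.03 CPM in Myh10-/- lungs. The log2 ratio of -0.77 ± 0.31 (SE, adjusted p = 0.237) was the largest among the genes of the list that did not pass. Ifit1 and Ifit3, of the family that binds foreign RNA, were counted less still, at 0.420 to 0.808 and 0.683 to 0.917 CPM, with overlapping genotypes. Ifit2, of the same family, had 28.6 and 26.0 CPM in Myh10+/+ lungs and 28.9 and 28.6 CPM in Myh10-/- lungs (0.07 ± 0.08 SE, adjusted p = 0.685). Bst2 (tetherin), which holds budding virions at the cell surface, had 17.5 and 19.3 CPM in Myh10+/+ lungs and 17.3 and 19.3 CPM in Myh10-/- lungs, nearly the same pair of values in both genotypes. The remaining effectors, Ifi35, Ifi27, Oasl2, Xaf1, Rsad2, Gbp3, Rtp4, Parp14 and Trim25, had log2 fold changes between -0.25 (Xaf1, adjusted p = 0.304) and -0.05 (Rsad2, adjusted p = 0.94). Among them Trim25, a ubiquitin ligase acting on RIG-I, was the best counted, with 97.7 and 95.3 CPM in Myh10+/+ lungs and 90.9 and 93.5 CPM in Myh10-/- lungs (-0.07, adjusted p = 0.607).

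All 3 Ly6 genes were lower and had the lowest adjusted p-values of the list. They encode small GPI-anchored surface proteins and lie on chromosome 15 between 74955051 and 75048830. Ly6e, the best counted gene of the list, had 200.1 and 221 CPM in Myh10+/+ lungs and 137 and 145 CPM in Myh10-/- lungs, which gave a log2 ratio of -0.57 ± 0.06 (SE, adjusted p = 0.0012). Ly6a, which encodes the stem cell antigen Sca-1, had 9.56 and 9.72 CPM in Myh10+/+ lungs and 4.10 and 4.94 CPM in Myh10-/- lungs, which gave a log2 ratio of -1.09 ± 0.14 (SE, adjusted p = 0.00631). In both genes the gap between genotypes was wider than the gap within either. Ly6c1, expressed on endothelium and some leukocytes, had 19.3 and 18.9 CPM in Myh10+/+ lungs and 11.2 and 12.9 CPM in Myh10-/- lungs, which gave a log2 ratio of -0.66 ± 0.09 (SE, adjusted p = 0.00897). None of these calls was lost when any single lung was left out, and the log2 fold changes then lay between -0.64 and -0.50 for Ly6e, -1.23 and -0.96 for Ly6a and -0.76 and -0.56 for Ly6c1. Ly6e shares no window with another gene, whereas 2.38% of the Ly6a and 23.2% of the Ly6c1 windows are shared within the family.

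Of 12 further Ly6 family genes, 8 were tested and none passed by edgeR, with 1 lower at an unadjusted p-value under 0.05, where 9.02% of all tested genes were. Ly6c2, the closest relative of Ly6c1, had 4.50 and 3.05 CPM in Myh10+/+ lungs and 2.98 and 3.29 CPM in Myh10-/- lungs (-0.28 ± 0.21 SE, adjusted p = 0.56). Lynx1, the gene at an unadjusted p-value under 0.05, had a log2 fold change of -0.43 (adjusted p = 0.0733).

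**Figure D2:**
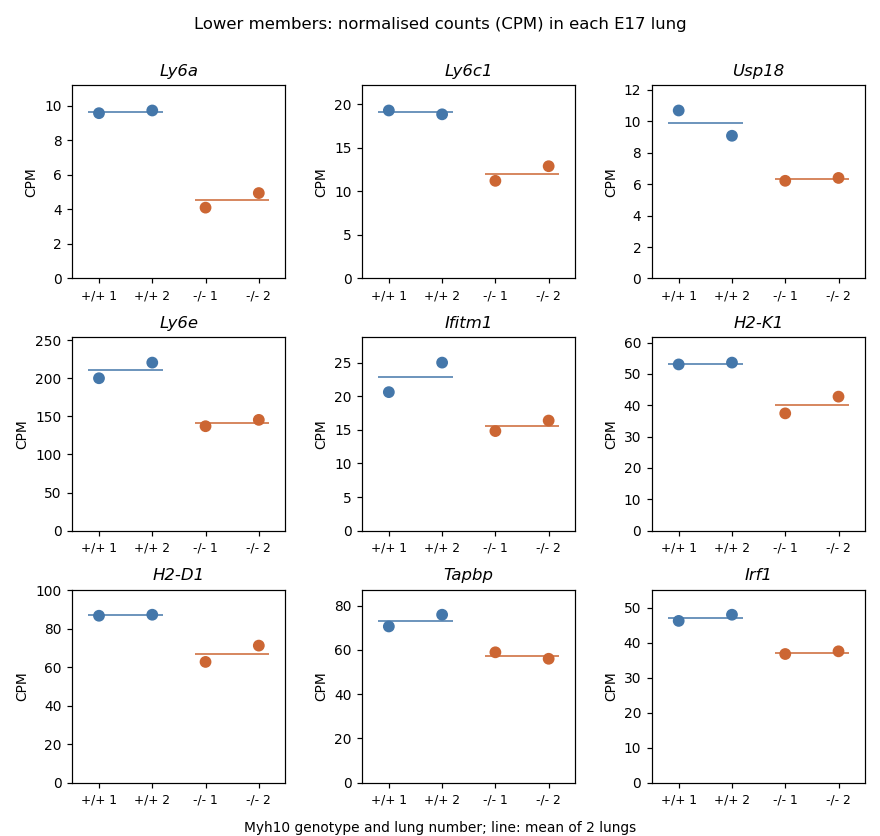
Normalised counts (CPM, vertical axes from 0) of the 9 lower genes in each lung, with the mean of 2 lungs as a line. In each panel both Myh10-/- lungs (orange) lie below both Myh10+/+ lungs (blue), from Ly6a (9.56 and 9.72 against 4.10 and 4.94 CPM) to Irf1 (46.2 and 48.0 against 36.7 and 37.5 CPM). The 9 genes were chosen by their values in these same lungs, so the separation is no further support.

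Further lists cover the other genes of the pathway. Of 116 tested genes on the further lists, 4 were lower (3.45%, where 1.34% of all tested genes were) and 0 were higher by edgeR, with 1 higher at an unadjusted p-value under 0.05, and their median log2 fold change was -0.09. Stat3, which carries cytokine signals downstream of JAK kinases, had 126 and 119 CPM in Myh10+/+ lungs and 101 and 103 CPM in Myh10-/- lungs (-0.26 ± 0.05 SE, adjusted p = 0.033). Socs3, a feedback inhibitor of that route, had 20.1 and 23.5 CPM in Myh10+/+ lungs and 14.8 and 17.1 CPM in Myh10-/- lungs (-0.45 ± 0.10 SE, adjusted p = 0.0451). Cd74, the invariant chain of MHC class II, had 19.6 and 20.3 CPM in Myh10+/+ lungs and 15.4 and 14.4 CPM in Myh10-/- lungs (-0.42 ± 0.08 SE, adjusted p = 0.0275). The fourth was Shisa5, a membrane protein, with 84.3 and 82.4 CPM in Myh10+/+ lungs and 64.6 and 70.3 CPM in Myh10-/- lungs (-0.31 ± 0.07 SE, adjusted p = 0.0475). In each of the 4 genes both Myh10-/- lungs lay below both Myh10+/+ lungs, as in 24.3% of all tested genes. Since the 4 were chosen by the same values, this adds no support. The count of 4 also depended on single lungs, and the share of all tested genes called moved too when a lung was left out.

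The kinases Jak1, Jak2 and Tyk2 had log2 fold changes of -0.03, -0.02 and -0.01, with adjusted p-values of 0.824, 0.909 and 0.97. Among 54 further effector genes 1, Shisa5, was lower (1.85%, near the 1.34% of all tested genes), and their median was -0.12. None of 23 tested genes of the further MHC class I and peptide loading list passed by edgeR, with 5 at an unadjusted p-value under 0.05, all lower. Of all tested genes 9.02% were lower at that level.

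Per kilobase of exon, levels in Myh10+/+ lungs spanned from 0.0422 CPM per kb for Nlrc5 to 181 for Ifitm2. Next to Ifitm2 stood B2m (174), Ifitm3 (83.6), Ly6e (55.6) and H2-D1 (33.7). The light chain was thus counted at a higher level per length than either heavy chain, H2-D1 or H2-K1 (18.2). The lowest after Nlrc5 were Ifit1 (0.219), Ifit3 (0.473) and Rsad2 (0.849), while Ifit2, of the same family as Ifit1 and Ifit3, stood at 6.96. In Myh10-/- lungs Ly6e stood at 37.3, H2-D1 at 26.0 and H2-K1 at 13.6 CPM per kb. Exon length was the union of all annotated exons, which understates genes whose main transcript is short.

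**Figure D3:**
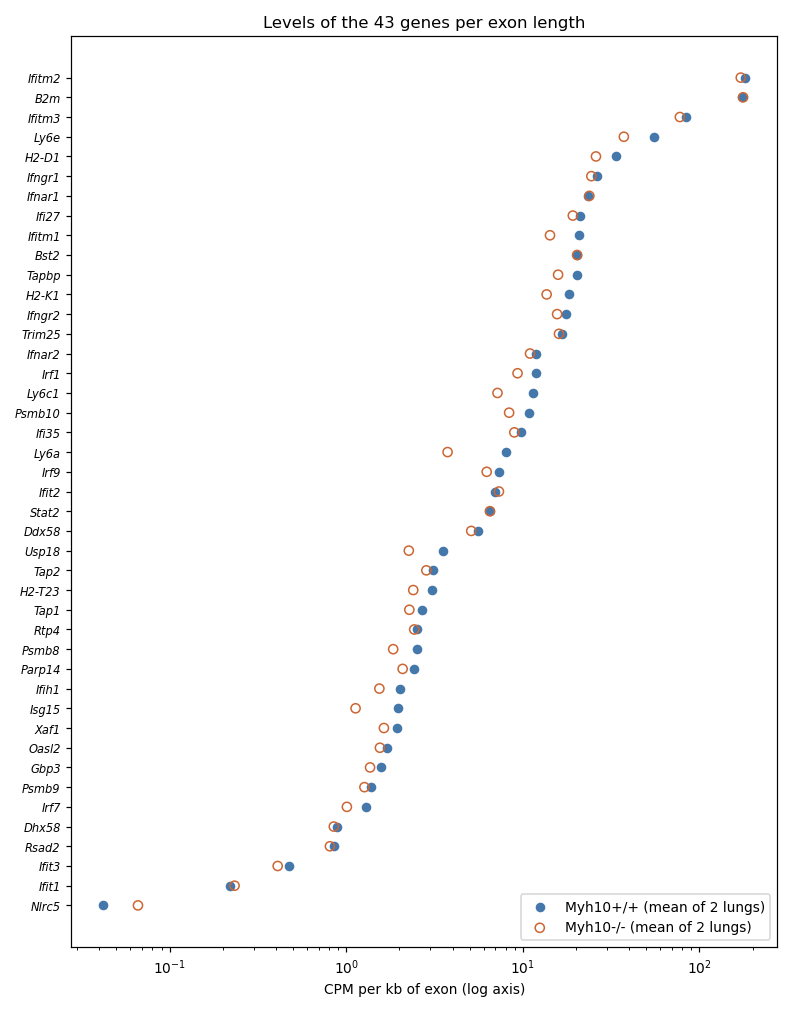
Mean level of each of the 43 genes in CPM per kb of exon (log axis), with Myh10+/+ as filled and Myh10-/- as open circles (2 lungs each). The genes span from Nlrc5 at 0.0422 to Ifitm2 at 181 in Myh10+/+ lungs, and the open circle of Ly6a is set furthest to the left of its filled one among genes above 1 CPM per kb.

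The Myh10-/- lungs differed from each other in these genes. Lung 2 was above lung 1 in 37 of the 43 genes, with a median difference of 0.16 on the log2 scale, while over all tested genes it was above in 9433 of 18763 with a median of 0.00. The Myh10+/+ lungs differed by a median of 0.02, with lung 2 above in 24 of the 43. The widest log2 gaps between the Myh10-/- lungs were in Gbp3, a guanylate-binding protein, with 3.16 and 5.75 CPM, in Ifit1 with 0.431 and 0.808 CPM and in Oasl2 with 7.73 and 12.1 CPM. For these 3 genes Myh10-/- lung 2 was higher than both Myh10+/+ lungs. In the 9 lower genes the same lung lay above Myh10-/- lung 1 in 8, the exception being Tapbp, and below both Myh10+/+ lungs in all 9. The latter follows largely from the choice of the 9 by these values.

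**Figure D4:**
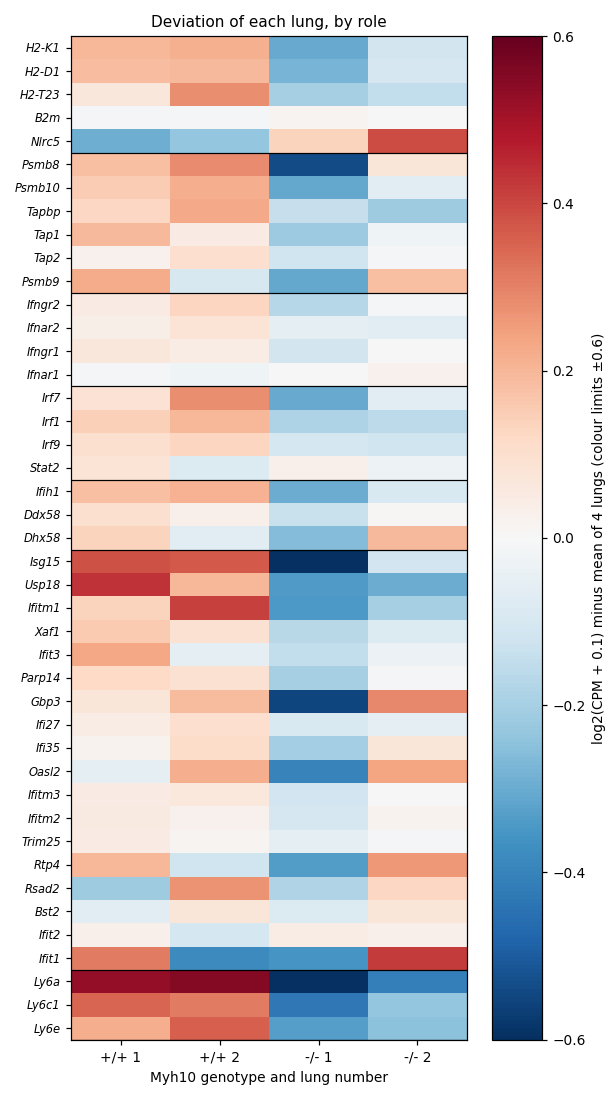
Deviation of each lung from the mean of the 4 lungs for the 43 genes (rows, by role) in log2(CPM + 0.1), red above and blue below the mean, with colours ending at 0.6. The column of Myh10-/- lung 1 is the bluest, the Ly6 rows at the bottom separate the genotypes, and rows such as Gbp3 and Oasl2 separate Myh10-/- lung 1 from the other lungs.

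Markers of the cell types in the lobe were measured beside these genes. Of all tested genes 1.34% were lower, and 9.02% at an unadjusted p-value under 0.05. Epithelial markers were lower in 8 of 12 (summed level 9478 to 9777 CPM in Myh10+/+ and 6815 to 7904 CPM in Myh10-/- lungs), endothelial markers in 1 of 12 (2360 to 2380 and 2161 to 2193 CPM) and leukocyte markers in 3 of 14 tested of 18 (387 to 419 and 313 to 358 CPM). At an unadjusted p-value under 0.05, 10 of 12 epithelial, 7 of 12 endothelial and 6 of 14 tested leukocyte markers were lower. Sftpc, which did not pass (adjusted p = 0.173), made up most of the epithelial sum, with 5815 and 5630 CPM in Myh10+/+ and 3876 and 4750 CPM in Myh10-/- lungs. The epithelial markers differed among themselves. Nkx2-1 and Epcam had log2 ratios of 0.02 and -0.04 (adjusted p = 0.881 and 0.738), while Cdh1 (-0.30) and Krt8 (-0.33) were among the 8. Mesenchymal markers were lower in 0 of 10 by edgeR, with 2 at an unadjusted p-value under 0.05 (5974 to 6148 and 5769 to 5901 CPM). The defining markers of T and NK cells, Cd3e and Ncr1, had at most 0.0719 CPM in any lung. The 3 lower leukocyte markers were Lyz2, S100a9 and Laptm5, with log2 ratios of -0.44, -0.55 and -0.32. Lyz2 was the best counted leukocyte marker, with 186 and 173 CPM in Myh10+/+ and 117 and 148 CPM in Myh10-/- lungs. It makes up a large part of the leukocyte sum, and which cells it came from was not tested. Ptprc, the pan-leukocyte gene, had 14.4 and 13.1 CPM in Myh10+/+ lungs and 10.5 and 12.3 CPM in Myh10-/- lungs (adjusted p = 0.224). The macrophage genes differed in direction, with log2 ratios of -0.22 for Csf1r, -0.05 for Cx3cr1, -0.03 for Adgre1, 0.07 for Mrc1 and 0.08 for Cd68, none of which passed (adjusted p from 0.163 to 0.949). The endothelial gene Pecam1 had 384 and 370.2 CPM in Myh10+/+ lungs and 339.8 and 340.5 CPM in Myh10-/- lungs (adjusted p = 0.157). Cldn5 was the endothelial marker that passed, with a log2 ratio of -0.34 (adjusted p = 0.0379). In lysates of whole lobes fewer cells of a type and less RNA per cell cannot be told apart, and the part of these cell types in the lower genes was not tested. Heart muscle markers were lower in 5 of 8 tested of 9 (291 to 351 and 218 to 237 CPM), and erythroid markers in 2 of 6 (4259 to 5348 and 3759 to 4274 CPM), and their part was not tested either.

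Promoter sequences were found in the RefSeq table for 34 of the 43 genes. Of these 34, 13 (38.2%) held an ISRE core, against 3.99% of all genes in the table. The 13 were B2m, H2-T23, Stat2, Ddx58, Ifih1, Ifitm2, Ifitm3, Bst2, Isg15, Ifit1, Ifit3, Rsad2 and Gbp3. They included none of the 6 lower genes with a promoter sequence, and 3 of the 9 had no entry. Only exact matches were counted, so a response element that departs from these letters would be missed, in H2-K1 and H2-D1 too. For H2-D1, Tapbp and Ifitm1 the window lies inside the gene as GENCODE places it. The median log2 fold change was -0.11 in genes with the core and -0.25 in those without. The STAT-binding GAS motif, searched as TTCNNNGAA on both strands (it reads the same on either), was in 8 of 34 and in 9.55% of all genes, and Irf1 was the lower gene that held it. The motifs were searched separately, so a base may count in both. Isg15 and Irf1 are shown as the clearest example of each, with the motif in capitals, and in Isg15 3 overlapping or adjoining cores form 1 run.
Isg15 (chr4:156200819-156201068, minus strand): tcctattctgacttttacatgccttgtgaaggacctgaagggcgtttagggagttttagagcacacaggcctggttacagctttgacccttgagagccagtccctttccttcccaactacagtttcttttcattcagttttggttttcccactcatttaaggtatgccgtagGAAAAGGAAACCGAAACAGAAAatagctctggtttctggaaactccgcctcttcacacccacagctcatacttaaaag
Irf1 (chr11:53769764-53770013, plus strand): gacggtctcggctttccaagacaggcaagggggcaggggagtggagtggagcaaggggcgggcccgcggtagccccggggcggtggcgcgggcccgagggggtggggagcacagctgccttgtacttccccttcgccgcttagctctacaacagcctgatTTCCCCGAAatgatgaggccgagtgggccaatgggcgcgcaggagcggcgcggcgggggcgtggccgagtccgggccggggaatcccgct
A match is a description of the letters in this window, and no match says only that these letters are not in it.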

How the data were processed

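RNA from the left lung lobe of 2 Myh10+/+ and 2 Myh10-/- embryos was prepared as stranded poly(A) libraries. The authors used Reaper for trimming, STAR 2.4.0a for alignment to GRCm38 and featureCounts 1.5.1 for counting reads on exons. Reads assigned to more than 1 gene or position were dropped. The deposited table holds these raw counts, 1 column per lung and not normalized. Whether counting used strand is not given in the sources used here, and 11 of the 43 genes have exons overlapped by an antisense gene.

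Groups came from the sample titles. Counts were scaled by TMM and tested with edgeR 4.0.16 (glmQLFit, glmQLFTest, genotype as the only term) in R 4.3.3 on genes whose mean reached 5 counts. Standard errors are the log2 fold change divided by the square root of F. Lungs of a genotype differed by more than counting noise (chi-square per degree of freedom 7.30 and 12.9). This value covers all tested genes, so it includes Xist, with 89703 and 35 counts in Myh10+/+ and 114 and 143443 counts in Myh10-/- lungs. Nothing says whether p-values cover more than the spread between these 4 lungs. Positions and exon lengths are from GENCODE M21 (GRCm38), which held 45143 of the 45706 identifiers, and promoters from RefSeq (GRCm38.p6, without chromosome 18). Alternatives were DESeq2 size factors, library totals, other filters, robust = TRUE, DESeq2 1.42.0, the replicate block, no sex-linked genes, an adjusted p-value under 0.1 and each lung left out. Leaving out a lung leaves 1 in its genotype, which is then assumed to vary like the other genotype. The test was also run on simulated counts.

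The 43 genes and the further lists were chosen with earlier results of these data known. All 43 genes could be named. Those past the threshold, those without overlap whose log2 ratio was 0.3 or more in size, and the best counted and most changed in each role were given in full. Others were named from the further lists when past the threshold, and a few partners of described genes after their values were seen.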

Additional observations from a re-analysis of the deposited data

How the results depend on the processing

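Across all alternatives with 4 lungs the count of lower genes stayed between 7 and 12 of 43 and the count of higher genes at 0. The 9 genes were shared by the fits with DESeq2 size factors, library totals, filterByExpr, robust = TRUE, no genes of chromosomes X, Y and MT, and the crossed block. DESeq2 gave 7 lower genes and no adjusted p-value for 18 of the 43, Ly6a and Usp18 among them. With no filter 12 passed, with Psmb8, Psmb10 and Ifih1 added, and at an adjusted p-value under 0.1 it was 11. The number of all genes called moved from 308 to 1162 with no filter, 474 with robust = TRUE and 710 with the replicate block, and lay between 191 and 1826 with each lung left out. Of the 308 genes 81.8% were lower, against 67.6% of the 346 with library totals, 59.2% without a filter, 71.5% with robust = TRUE and 65.6% with the block. The other pathway genes called moved from 4 to 10 with no filter, 2 at a mean of at least 50 counts and 8 with the block, and lay between 1 and 16 with each lung left out. The count of lower genes lay between 5 and 15 and the median log2 fold change between -0.31 and -0.12 with each lung left out.

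The numbers 1 and 2 give no pairing that the sources state. Deviations of same-numbered lungs had a correlation of -0.297 across genes, and 0.0114 without sex-linked genes. Lungs of the same number were unlike in Xist. The replicate block, which joins lungs of the same number, raised the count from 9 to 11 (with Ifih1, adjusted p = 0.0309, and Psmb10, adjusted p = 0.0292). The crossed block, added after the data had been seen, joins lung 1 of each genotype with lung 2 of the other. It thus joins lungs alike in Xist, and it left the count at 9 (415 genes in all).

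No called gene changed direction under any alternative. Of the others, Stat2 turned to 0.017 with library totals, 0.00056 with no filter, 0.0023 at a mean of at least 50 counts and 0.00045 with the replicate block, and Bst2 to 0.018, 0.0017, 0.0035 and, without sex-linked and mitochondrial genes, 0.0027. With a lung left out, signs also turned for Stat2 (-0.082 to 0.083), Bst2 (-0.082 to 0.074), Psmb9 (-0.39 to 0.11), Dhx58 (-0.31 to 0.16), Rtp4 (-0.40 to 0.21), Ifit1 (-0.45 to 0.58), Oasl2 (-0.48 to 0.16), Rsad2 (-0.29 to 0.20), Ifi35 (-0.27 to 0.0067) and Gbp3 (-0.70 to 0.17). The cause was not tested. Genes under 50 counts, such as Isg15, Ifit1, Ifit3 and Nlrc5, have standard errors of 0.31 to 0.45, so even a 2-fold change could fall short of the threshold at this depth. Zbp1, a low-count gene of the further lists, did not pass by edgeR at -1.09 ± 0.44 (SE, adjusted p = 0.234).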
